A study of Homo sapiens with 16 samples.

Results

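The matrix metalloproteinase cluster on chromosome 11 holds 9 genes, MMP7, MMP20, MMP27, MMP8, MMP10, MMP1, MMP3, MMP12 and MMP13, and was examined as all ChIP-seq peaks in the hg19 window on chromosome 11 from 102380000 to 102840000. Of 193384 peaks in 12 deposited lists, 36 lay in this window of 460 kb. The window was set by position alone, and 500 kb on either side served as flanks. Peaks came from chromatin immunoprecipitation and sequencing of 3 histone H3 modifications in 2 established human breast lines, each done in 2 replicates, biological ones per the labels. MCF-10A, labelled luminal ductal, is a non-tumorigenic line and was kept in medium with EGF, insulin, cholera toxin and hydrocortisone. MDA-MB-231 is a breast cancer line that the labels describe as derived from a metastatic site. Beyond these medium supplements of MCF-10A, the labels name no added agent and no engineered allele for either line. Both lines were harvested before confluence, and each came from a stock kept in the laboratory. The part of the medium in any difference between the lines was not tested. The 4 input libraries were not analysed here. The cell types given in the labels were not checked against marker genes, because no hg19 annotation was used here. For the same reason, no peak is assigned to a single member.

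Matrix metalloproteinases are secreted or membrane-bound zinc enzymes that cut collagens, proteoglycans and other proteins of the extracellular matrix. Most are made as inactive precursors, are held in check by tissue inhibitors (TIMPs), and are induced in development, wound repair, inflammation and tumour invasion. The cluster holds collagenases, which open the triple helix of fibrillar collagen (MMP1, MMP8, made mainly by neutrophils, and MMP13). It also holds stromelysins with broad substrates (MMP3 and MMP10), matrilysin (MMP7), which epithelia secrete, macrophage elastase (MMP12), enamelysin (MMP20), which shapes tooth enamel, and MMP27. MMP1 is known as a gene linked to invasion of MDA-MB-231 cells. H3K4me3 marks active and poised promoters, Polycomb repressive complexes write H3K27me3, and H3K9me2 accompanies silent chromatin.

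The RefSeq gene table gives the order along the chromosome as MMP7, MMP20, MMP27, MMP8, MMP10, MMP1, MMP3, MMP12 and MMP13. From MMP7 to MMP13 it lists 16 genes, of which the 9 members are the protein-coding ones. The other 7 are 2 long non-coding RNAs (MMP20-AS1 is one), 4 pseudogenes and the transcribed pseudogene WTAPP1. TMEM123 and DCUN1D5 are the protein-coding neighbours on the MMP7 and MMP13 sides. Gene lengths run from 7809 bp for MMP3 to 48501 bp for MMP20. The table is on GRCh38.p14 and was used for names and order, not to place peaks.

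Promoter sequences are shown because H3K4me3, a mark of promoters, was called in the flanks and nowhere in the window, although no peak was placed at a promoter. RefSeq promoters on GRCh38.p14, with 250 bases before and 50 bases after the start, were matched for 5 of the 9 members, MMP7, MMP20, MMP27, MMP8 and MMP10. The unmatched members were MMP1, MMP3, MMP12 and MMP13. The last 150 bases before the start are printed 5′ to 3′ for 2 members and for the neighbour TMEM123. They lie at chr11:102530748-102530897, chr11:102780629-102780778 and chr11:102452766-102452915 on the minus strand of GRCh38.p14. Capitals in MMP7 and MMP10 mark the letters of an AP-1 site (TGANTCA) and of a TATA box (TATAAA), and capitals in TMEM123 mark CpG dinucleotides.
MMP7: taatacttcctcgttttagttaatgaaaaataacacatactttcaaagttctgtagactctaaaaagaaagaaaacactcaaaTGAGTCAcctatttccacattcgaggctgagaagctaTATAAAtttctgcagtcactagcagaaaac
MMP10: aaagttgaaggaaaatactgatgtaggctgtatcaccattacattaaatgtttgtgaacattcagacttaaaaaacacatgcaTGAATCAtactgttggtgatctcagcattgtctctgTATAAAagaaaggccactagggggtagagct
TMEM123: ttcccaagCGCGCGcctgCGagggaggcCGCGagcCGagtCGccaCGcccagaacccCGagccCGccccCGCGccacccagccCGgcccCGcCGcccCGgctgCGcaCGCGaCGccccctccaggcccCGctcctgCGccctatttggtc

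The promoters of these 5 members were poor in CpG. In the 300 bases MMP7 had 4 CpG, MMP20 had 3, and MMP27, MMP8 and MMP10 had 2 each, against a median of 14 over 35116 RefSeq promoters. These values fall between the 10.97 and 24.5 percentiles of all promoters. TMEM123 had 38 CpG (90.1 percentile) and DCUN1D5 had 26 (69.9 percentile), so both neighbours lay above every matched member. GC content was 33.3% to 44.3% in the members against a median of 58.7%. Any link between CpG content and the lack of H3K4me3 was not tested.

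Both strands were searched for 3 motifs. The AP-1 letters TGANTCA, bound by dimers of Fos and Jun proteins, occurred in 3 of the 5 members (MMP7, MMP20 and MMP10), and in 7.71% of all promoters. TATAAA occurred in 4 of the 5, all but MMP27, and in 11.5% of all promoters. In MMP7 the AP-1 match began 67 bases and the TATA match 30 bases before the start, and in MMP10 they began 67 and 31 bases before it. In MMP20 these matches began 112 and 72 bases before the start, and the TATA match of MMP8 began 110 bases before it. The PEA3 letters AGGAAG, read by ETS factors, occurred in MMP7 alone among the 5, on the opposite strand at 169 and 145 bases before the start, and in 33.6% of all promoters. No AP-1, TATA or PEA3 match shared bases with another. These matches describe letters and carry no test.

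**Figure D1:**
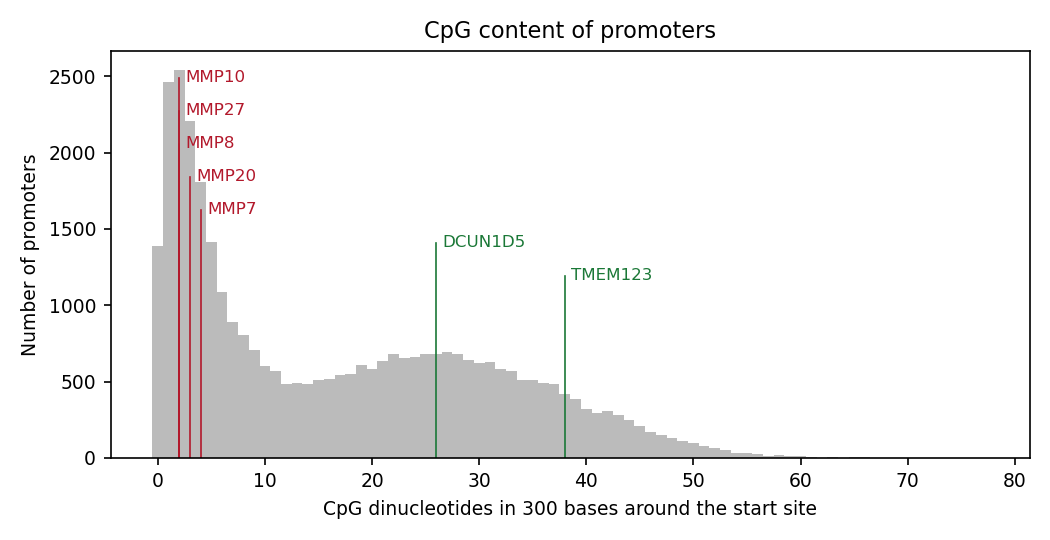
Number of RefSeq promoters (y axis) by CpG dinucleotides in 300 bases (x axis); red lines mark the 5 matched members and green lines the neighbours TMEM123 and DCUN1D5, with line heights set for legibility. The members have 2 to 4 CpG, and DCUN1D5 and TMEM123 have 26 and 38.

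H3K4me3 was not called anywhere in the cluster. The window held 0 peaks in MCF-10A replicates 1 and 2 and 0 in MDA-MB-231 replicates 1 and 2, whereas the flanks held H3K4me3 on both sides in all 4 libraries. On the MMP7 side, MCF-10A had 6 and 7 peaks in the left flank and MDA-MB-231 had 7 and 6. The right flank had 2 peaks in each library. Covered bases per kb of the 2 flanks together were 12.1 and 13.7 in MCF-10A and 13.5 and 13.4 in MDA-MB-231, against 0 in the window. All 4 libraries were therefore lower in the window. The two-sided exact sign-flip permutation test over these 4 libraries gave p = 0.125, the smallest it can give.

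The stretch without H3K4me3 was the same in both lines to within 1 kb. It measured 637.6 and 637.5 kb in MCF-10A and 637.4 kb in both MDA-MB-231 libraries, against a median distance between neighbouring H3K4me3 peaks of 50.8 to 54.3 kb. Gaps shorter than this made up 93.6% to 94.2% of all gaps in a library. The nearest region on the MMP7 side lay from 102321932 to 102324298, 55.7 to 55.9 kb outside the window. The nearest on the MMP13 side lay from 102961649 to 102963480, 121.6 to 121.7 kb outside it. Both were present in all 4 libraries.

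Lack of H3K4me3 between marked flanks was not unusual for a stretch of this length. The genome (chromosomes 1 to 22 and X) was cut into tiles of 460 kb, of which the window was one. Among 2641 tiles with H3K4me3 in all 4 libraries in each of their own 500 kb flanks, 251 (9.5%) had none in the tile in any library. Of the 8 merged H3K4me3 regions in the flanks, 7 were in all 4 libraries. The other, from 102138650 to 102139450 in the left flank, was in both MCF-10A libraries and in neither MDA-MB-231 library. By the authors' score, its peaks in MCF-10A replicates 1 and 2 ranked above 14.0% and 24.2% of their lists. The same shares over all merged H3K4me3 regions were not computed here, so these counts cannot be called high or low. The authors' peak lists hold no read counts, so the depth behind any peak, and behind the lack of one, is unknown.

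H3K27me3 showed the opposite layout: it was called inside the cluster in all 4 libraries and in neither flank in any. MCF-10A replicates 1 and 2 had 12 and 7 peaks in the window, covering 8089 and 4871 bp, and MDA-MB-231 replicates 1 and 2 had 2 and 14 peaks, covering 1456 and 8020 bp. Per kb of window the covered bases were 17.6, 10.6, 3.17 and 17.4 in that order, and the flanks were listed at 0 in each. All 4 libraries were higher in the window, with a two-sided exact sign-flip permutation p = 0.125, again the smallest possible. The low value belongs to MDA-MB-231 replicate 1, whose whole list is short, with 8493 peaks against 29014 to 30564 in the other H3K27me3 lists. A score of at least 100, the authors' value per peak, was then asked for. Only MCF-10A replicate 2 (2 peaks) and MDA-MB-231 replicate 2 (1 peak) kept any in the window. The sign-flip permutation p was then 0.5, the smallest possible with peaks in these libraries alone.

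**Figure D2:**
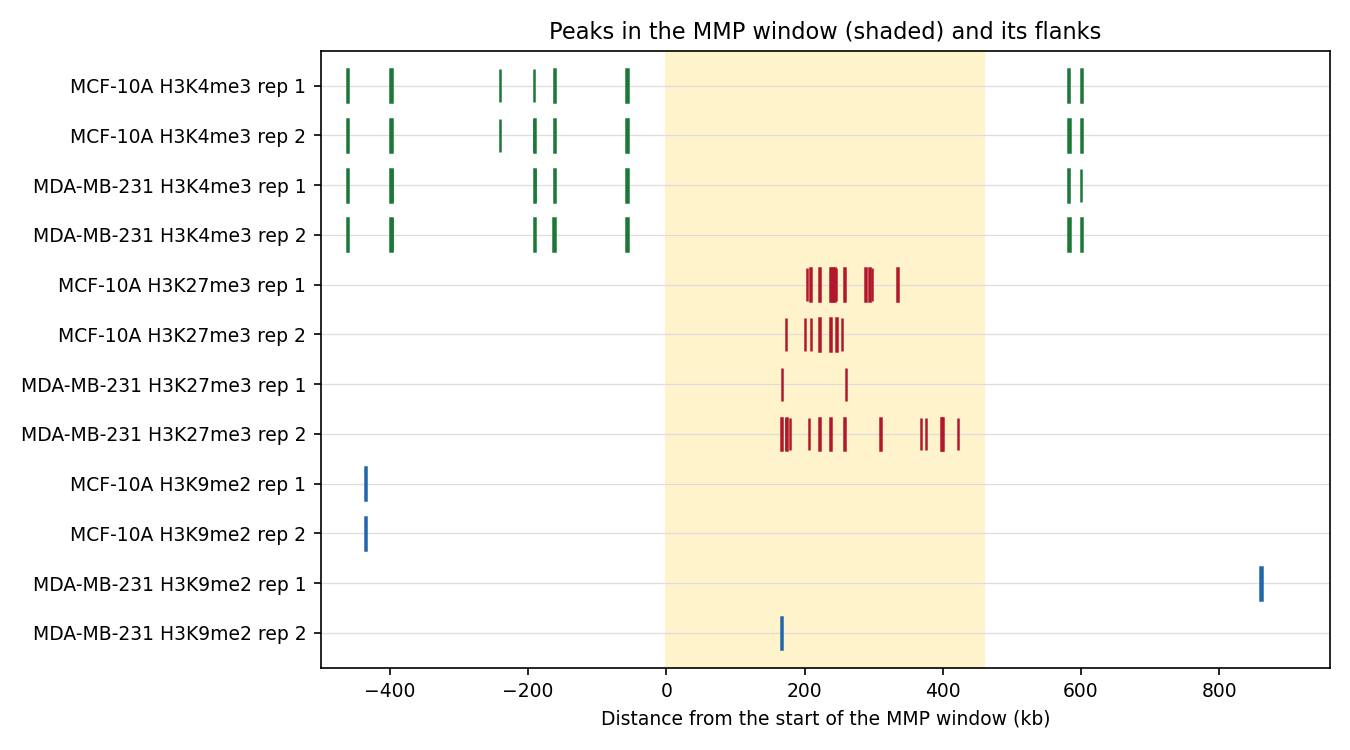
Position of every deposited peak (bars) in the window (shaded) and its flanks, in kb from the window's start (x axis), with 1 row per library. Green H3K4me3 bars lie outside the shaded window in all 4 libraries, and red H3K27me3 bars lie inside it.

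The island of H3K27me3 stood far from any other. The next H3K27me3 peak beyond the window was 811 and 926 kb away on the MMP7 side in MCF-10A and 941 and 844 kb away in MDA-MB-231, replicates 1 and 2. On the MMP13 side the distances were 782 and 1037 kb in MCF-10A and 2349 and 715 kb in MDA-MB-231. Tiles with both flanks on the chromosome and a peak in any of the 12 lists numbered 5533. H3K27me3 in all 4 libraries was found in 1423 of them (25.7%), and 14 of these 1423 (0.984%) had none in either flank in any library. Without the short MDA-MB-231 replicate 1 the same count was 31 of 1915 tiles (1.62%). The window was the 1 tile of 5533 (0.0181%) that also had H3K4me3 in all 4 libraries in each flank and none within, and it was so without MDA-MB-231 replicate 1 as well. This combined rule was written after the window's peaks had been seen and describes them. It is not a test. The tile grid was also set to the window on its own chromosome and to the chromosome start on all others. Tile edges elsewhere could therefore cut through a marked block and leave part of it in a flank. These shares can be low for that reason alone and do not measure how rare such an island is.

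**Figure D3:**
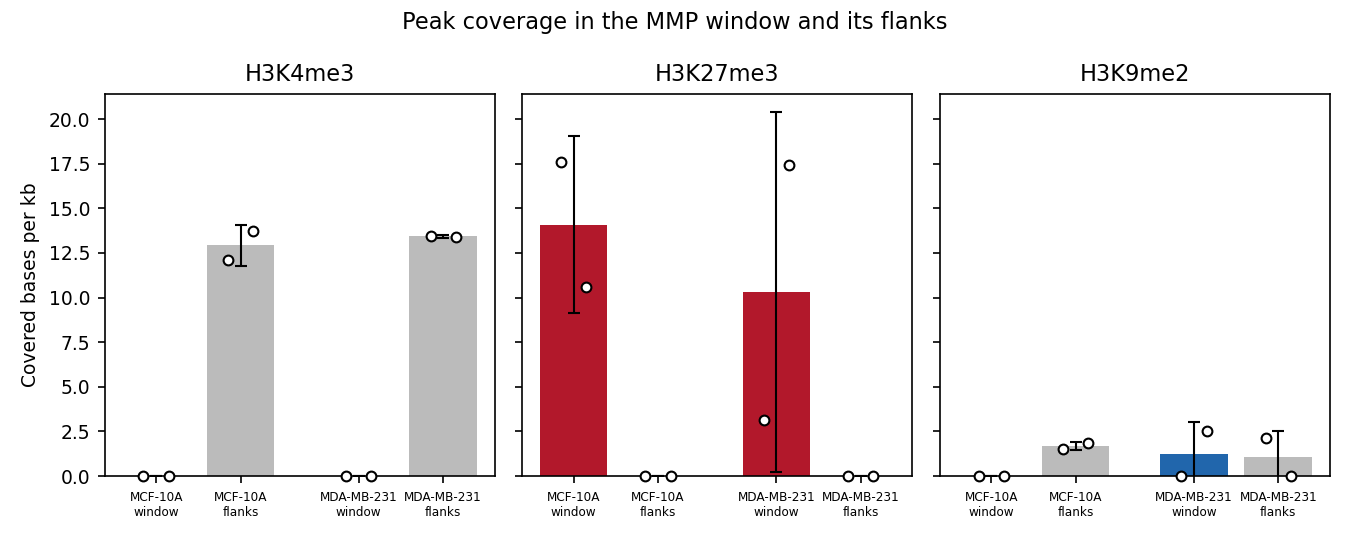
Covered bases per kb (y axis) in the window (coloured bars) and in both flanks together (grey bars) by line and mark; bars are means, whiskers SD of 2 libraries, and circles single libraries. H3K4me3 is at 0 in the window in all 4 libraries, and H3K27me3 is at 0 in the flanks in all 4.

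Within the window H3K27me3 was called in the middle and, in 1 library, toward the MMP13 side, but not at the end on the MMP7 side. The sides follow gene order, and no member's own position within the window was used. Cut into 4 stretches of 115 kb, the window had a first stretch, on the MMP7 side, that held no peak in any library. In the second, MCF-10A had 3 and 4 peaks and MDA-MB-231 had 1 and 6. In the third, MCF-10A had 9 and 3 peaks and MDA-MB-231 had 1 and 3. The fourth, on the MMP13 side, held 5 peaks in MDA-MB-231 replicate 2 and 0 in the other 3 libraries. All peaks fell from 102546299 to 102802135, a span of 256 kb, and those of MCF-10A ended at 102714628. The extent toward MMP13 in MDA-MB-231 therefore rests on replicate 2 alone, since MDA-MB-231 replicate 1 had no peak beyond that point.

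Merged by overlap of at least 1 bp, the 35 H3K27me3 peaks formed 27 regions, of which 21 were in 1 library only, 4 in 2 and 2 in 3. No region was in all 4 libraries. Low overlap was general for this mark: over chromosomes 1 to 22 and X, 72.5% of 66286 merged H3K27me3 regions were in 1 library, 20.2% in 2, 5.56% in 3 and 1.77% in 4, against 77.8%, 14.8%, 7.41% and 0% in the window. MCF-10A replicate 1 alone gave 8 of the single-library regions, MCF-10A replicate 2 gave 3, MDA-MB-231 replicate 1 gave 1 and MDA-MB-231 replicate 2 gave 9. Regions of 1 library were 251 to 1109 bp wide. The 6 regions in at least 2 libraries all lay within 91.8 kb, from 102546299 to 102638084.

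Of the 4 regions held by both replicates of a line, 2 crossed the lines. The region from 102601541 to 102602345 (805 bp) was in both MCF-10A libraries and in MDA-MB-231 replicate 2, at the 34.5, 78.8 and 47.4 percentiles of score (the share of a list's peaks that score lower). The region from 102617332 to 102618195 (864 bp) was in the same 3 libraries, at the 67.5, 77.7 and 71.0 percentiles. Both were missing from MDA-MB-231 replicate 1, whose list is short.

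The remaining 2 were found in one line. The region from 102625123 to 102626355 (1233 bp) was in both MCF-10A libraries and in neither MDA-MB-231 library, at the 25.4 and 2.75 percentiles of score, so it ranked low in both lists. The MCF-10A peaks at this region covered different parts of it, from 102625123 to 102626144 in replicate 1 and from 102625854 to 102626355 in replicate 2. The region from 102546299 to 102547376 (1078 bp), the region farthest toward the MMP7 side, was called in each MDA-MB-231 library but in no MCF-10A library, at the 14.3 and 88.04 percentiles. Such regions made up 1 of 27 (3.70%) for each line, against 11.1% of all 66286 merged H3K27me3 regions for MCF-10A and 2.99% for MDA-MB-231, and their difference between the lines was not tested.

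Other regions paired libraries across the lines. The region from 102553011 to 102553609 was in MCF-10A replicate 2 and MDA-MB-231 replicate 2, and that from 102637451 to 102638084 was in MCF-10A replicate 1 and MDA-MB-231 replicate 2. Of the 12 window peaks of MCF-10A replicate 1, 3 (25.0%) overlapped MCF-10A replicate 2, against 45.4% over the whole list, and 3 overlapped MDA-MB-231 replicate 2, against 22.5%. Of the 7 window peaks of MCF-10A replicate 2, 3 (42.9%) overlapped MCF-10A replicate 1, against 45.5% over its list. In MDA-MB-231, 1 of the 2 peaks of replicate 1 overlapped replicate 2, against 48.0% over its list, and 1 of the 14 of replicate 2 (7.14%) overlapped replicate 1, against 14.6%.

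The H3K27me3 peaks of the cluster were weak to middling in their lists. A score of 100 or more was reached by 3 of the 35 (8.57%). In MCF-10A replicates 1 and 2 these were 0 of 12 and 2 of 7, against 26.2% and 25.5% of the whole lists. In MDA-MB-231 replicates 1 and 2 they were 0 of 2 and 1 of 14, against 8.42% and 23.3%. The window's peaks had a median within-list score percentile of 41.0 and 45.9 in MCF-10A and 14.9 and 43.1 in MDA-MB-231, replicates 1 and 2. Median widths in the window were 650, 689, 728 and 501.5 bp in that order, close to the list medians of 628, 621, 734 and 563 bp. Percentiles of score were taken within a list, because no source used here gives the scale of the scores. The cut of 100 was the same in every list, so its shares are not on a known common scale. Coverage of the whole window nevertheless ranked above most tiles: it exceeded 86.4% and 79.1% of all 5614 tiles with a peak in any list in MCF-10A and 82.2% and 88.4% in MDA-MB-231. Much of each rank comes from tiles without H3K27me3. The mark was present in 61.2% and 60.5% of these tiles in MCF-10A and in 32.5% and 44.1% in MDA-MB-231.

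The amount of H3K27me3 in the cluster was not found to differ between the lines. Scaled to a library's total coverage, the window had 375 and 228 covered bp per Mb (bp/Mb) in MCF-10A and 223 and 409 bp/Mb in MDA-MB-231, or 302 ± 104 and 316 ± 132 bp/Mb (mean ± SD, n = 2). The ranges of the lines overlapped almost wholly. On the scale log2(bp/Mb + 10), the limma fit over 3406 tiles gave a log2 ratio, MDA-MB-231 over MCF-10A, of 0.04 (SE 0.48, 95% interval −1.41 to 1.50, adjusted p = 0.95, Benjamini-Hochberg). This interval leaves room for a change of over 2-fold in either direction. In the same fit 50.8% of tiles were called, 37.2% higher in MCF-10A and 13.6% higher in MDA-MB-231, and the median log2 ratio of all tiles was −1.29. The window lay above that median.

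The sign of the window's ratio turned with the scaling, and no version passed the test. Unscaled coverage gave −0.63 (limma adjusted p = 0.583), and scaling within each chromosome gave −0.82 (limma adjusted p = 0.226). In the other direction, equal numbers of top-scoring peaks gave 1.28 (limma adjusted p = 0.18, 95% interval −0.54 to 3.10). Peak number was 9.5 ± 3.54 in MCF-10A and 8 ± 8.49 in MDA-MB-231 (mean ± SD, n = 2). A two-sided exact permutation test gave p = 1, with 0.333 as the smallest possible. Copy number of the cluster in each line was not measured here, so its part in any difference was not tested.

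**Figure D4:**
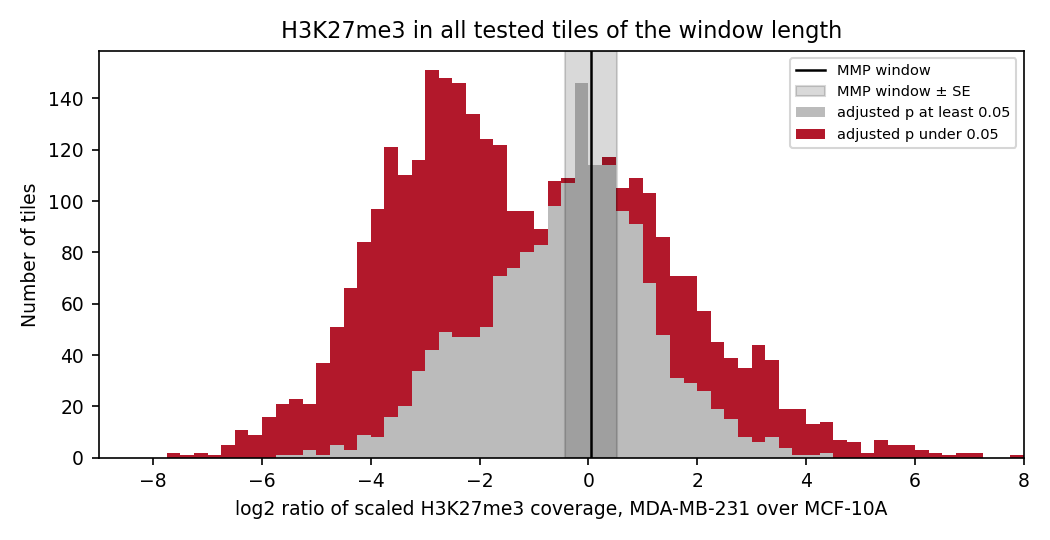
Number of 460 kb tiles (y axis) by log2 ratio of scaled H3K27me3 coverage, MDA-MB-231 over MCF-10A (x axis), with tiles past an adjusted p of 0.05 in red; the black line is the window and the shading its SE. The window sits at 0.04, above the median of −1.29 over the tiles that entered this fit.

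H3K9me2 was nearly lacking from the cluster, though in MDA-MB-231 most tiles also held none. Of the 5614 tiles with a peak in any list, 70.1% and 64.5% held H3K9me2 in MCF-10A, and 32.8% and 31.2% in MDA-MB-231. The window held 0 peaks in both MCF-10A libraries and in MDA-MB-231 replicate 1, and 1 peak in MDA-MB-231 replicate 2, from 102546325 to 102547486. That peak of 1162 bp lay on the MDA-MB-231 H3K27me3 region described above: H3K27me3 peaks covered 59.0% of it in MDA-MB-231 replicate 1 and 89.2% in MDA-MB-231 replicate 2, and none of it in MCF-10A. It ranked at the 41.1 percentile of score in its list. The site was thus the one place in the window where both repressive marks were called, in 1 H3K9me2 library and 2 H3K27me3 libraries of one line.

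The flanks held as little H3K9me2. Both MCF-10A libraries had 1 peak in the left flank, merged from 101943482 to 101945314, and MDA-MB-231 replicate 1 had 1 in the right flank, from 103239488 to 103241595. Covered bases per kb of both flanks were 1.54 and 1.83 in MCF-10A, and 2.11 and 0 in MDA-MB-231, against 0, 0, 0 and 2.53 in the window. The window was lower than its flanks in 3 of 4 libraries, with a two-sided exact sign-flip permutation p = 0.625. With flanks of 1 Mb the p was 0.125, the smallest possible, and with flanks of 250 kb it was 1. With H3K9me2 in 1 of 4 libraries and H3K4me3 in none, the window was covered in too few libraries to enter the limma fit of either mark.

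The rest of the family, MMP2, MMP9, MMP11, MMP14, MMP15, MMP16, MMP17, MMP19, MMP21, MMP23B, MMP24, MMP25, MMP26 and MMP28, and the inhibitors TIMP1, TIMP2, TIMP3 and TIMP4, could not be placed on hg19 and were not counted.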

How the data were processed

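The series has 16 samples, 12 of them with a peak list, grouped by mark and line from their titles. The deposited lists have 5 columns (chromosome, start, end, name and a score per peak, the authors' own value, at least 50 throughout, whose scale no source used here gives). Per the submitters' processing notes the build was hg19 and the tools included Bowtie2, CASAVA 1.6, bedtools and MACS 1.4, with no roles or settings. No source used here says how the inputs served. Positions are printed counting from 1. Depth is unknown. The limma and peak-number p-values rest on 2 replicates per line, and limma draws its spread partly from all tested tiles. The sign-flip p-values rest on 4 libraries of both lines, each comparing the window with its own flanks.

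Covered bases were summed in the window, its flanks and tiles of 460 kb, and tested with limma 3.58.1 (R 4.3.3, trend, tiles covered in at least 2 of 4 libraries, Benjamini-Hochberg, threshold 0.05). Python 3.11.15, NumPy 2.4.6, pandas 2.3.3, SciPy 1.17.1 and matplotlib 3.10.9 did the rest. The tile fit was also run on simulated data, with changes placed only in tiles covered in all 4 libraries, and its outcome is not given here. Members, lists and tests were chosen with earlier results of these data known. The text names all 9 members, and every window region held by both replicates of a line. Other regions, those in 2 libraries of different lines among them, were chosen after their values were seen. Alternatives were other pseudocounts, filters, scalings, scores, list lengths, flank widths, overlaps, a replicate block and each library left out. Scaling within chromosomes and tile patterns without MDA-MB-231 replicate 1 were added after seeing the data.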

Additional observations from a re-analysis of the deposited data

How the results depend on the processing

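The flank comparisons of H3K4me3 and H3K27me3 kept their direction in all 7 alternatives each, but most of these could not have turned it. The window held no H3K4me3 peak in any library, so no alternative could reverse that mark. The flanks held no H3K27me3 peak, so only flanks of 1 Mb could reverse it. The mean H3K27me3 difference, log2(bp per kb + 1), was 3.50, 2.71 with flanks of 1 Mb and 0.96 with a score of at least 100. The flank comparison of H3K9me2 had a mean difference of −0.67 on the same scale, 0.45 with flanks of 250 kb and −1.68 with flanks of 1 Mb. The H3K27me3 log2 ratio between the lines (0.04) was −0.63 unscaled, −0.12 with a score of at least 100, −0.82 scaled within chromosomes, 1.28 with equal numbers of top-scoring peaks, and −0.38 to 0.47 with 1 library left out; limma adjusted p ranged from 0.18 to 0.979. The difference in H3K27me3 peak number, MDA-MB-231 minus MCF-10A (−1.5), was 1 with equal numbers of top-scoring peaks and −7.5 to 4.5 with 1 library left out.

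H3K27me3 regions found only in both MCF-10A libraries (1) numbered 0 when half-coverage of a region (50%) or a score of at least 100 was asked for, 12 counting either replicate, and 1 to 9 with 1 library left out. Those only in both MDA-MB-231 libraries (1) numbered 0 with that score, 11 counting either replicate, and 1 to 10 with 1 library left out. With 1 library left out, the other library of its line stood for that line. The 9 and the 10 therefore rest on MCF-10A replicate 1 and on MDA-MB-231 replicate 2, not on both libraries of a line. Regions in both lines were 4 counting either replicate, and those in all libraries 0 to 2 with 1 library left out. For H3K9me2, MDA-MB-231 regions (0) numbered 1 counting either replicate and 0 to 1 with 1 library left out.

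H3K27me3 tiles called higher in MDA-MB-231 (462) and in MCF-10A (1267) ranged from 95 to 615 and from 120 to 1845 over the alternatives. With the replicate number as a block the window's limma adjusted p was 0.957, and the calls were 415 and 1340. Same-numbered libraries of the lines shared no deviation for H3K27me3 (correlation −0.0026 across tiles) or H3K9me2 (−0.011), and little for H3K4me3 (0.159). Alternatives for the tile fit of H3K4me3 and H3K9me2 gave the window no test, except all covered tiles for H3K9me2 (log2 ratio 1.79, limma adjusted p = 0.437). The lists hold no counts, so depth could not be weighed.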
